A study of Pinus pinaster with 36 samples.

Results

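Needles of maritime pine (Pinus pinaster) seedlings raised at 720 ppm CO2 were compared with needles of seedlings raised at 400 ppm CO2, over both nitrogen forms. Of the 36 libraries of the series, 12 were made from needles, 6 at 720 ppm and 6 at 400 ppm, and the other 24 from stem and roots. At 720 ppm, 3 needle libraries came from seedlings watered with 8 mM ammonium (as the chloride) and 3 from seedlings watered with 8 mM nitrate (as the potassium salt), and the same split of 3 and 3 held at 400 ppm. All seedlings were 2 months old, came from the Segura-Alcaraz provenance, and had been under these conditions for 1 month, with 40 mL of the nitrogen solution a week. Each library was a pool of 12 seedlings, so that differences between single plants cannot be seen. Every group received nitrogen in one form or the other. The labels name no chamber for either CO2 level, so CO2 and growth chamber cannot be told apart.

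The values were read counts per transcript identifier. Transcripts with a mean of at least 1 CPM (the count scaled to a library total of 1000000) over the 12 needle libraries were kept, which left 55980 of the 224081 identifiers and 97.67% to 98.11% of the counts of each needle library. Close to this limit, 888 identifiers were left out with means less than 5% below it, and 885 were kept with means less than 5% above it. The files give numbered identifiers without gene names, so the transcripts are described by number, rank and level, and the needle label could not be checked against marker genes.

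Needles are the photosynthetic leaves of pines. In them Rubisco fixes CO2 in the Calvin cycle and competes with oxygen at the same active site, so that a higher CO2 level favours carboxylation over photorespiration. Transcripts of the photosynthetic apparatus are typically among the most abundant of a green leaf, and plants kept at raised CO2 often adjust carbon and nitrogen metabolism over weeks. Nitrate has to be reduced before it enters amino acids, whereas ammonium enters directly through glutamine synthetase and glutamate synthase. None of these functions can be assigned to a transcript below.

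Library totals in needles were 75446070 to 134836160 counts at 720 ppm and 73414247 to 100972892 counts at 400 ppm. The share of identifiers at 0 counts was 28.6% to 58.52% at 720 ppm and 32.52% to 56.45% at 400 ppm, and the share of even numbers among counts above 20 was 52.71% to 73.15% at 720 ppm and 54.22% to 72.3% at 400 ppm. Over 65% of such counts were even in 1 library at 720 ppm (ammonium replicate 3) and in 3 libraries at 400 ppm (ammonium replicate 2, nitrate replicates 1 and 2). These 4 libraries are called the even-rich libraries, and the results below are given with and without them where they change. Both measures averaged lower at 720 ppm than at 400 ppm. Identifiers at 0 averaged 37.85% ± 10.6 against 45.97% ± 8.745, and even counts 57.01% ± 7.964 against 64.46% ± 6.964 (SD, n = 6 each). Neither difference passed by exact permutation (adjusted p = 0.205 for identifiers at 0 and 0.156 for even counts). This does not show that the CO2 levels were alike in these measures.

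The most abundant transcripts of the needles held a larger part of all counts at 720 ppm. Under ammonium, the 50 transcripts with the highest mean CPM took 13.61%, 15.43% and 14.34% of the counts in the libraries at 720 ppm and 12.6%, 12.31% and 10.97% in those at 400 ppm. Under nitrate, they took 13.28%, 14.1% and 13% at 720 ppm and 12.77%, 10.74% and 11.02% at 400 ppm. All 6 libraries at 720 ppm therefore stood above all 6 at 400 ppm. The 50 were chosen on the mean of all 12 libraries, without regard to CO2, and by counts without correction for transcript length, which favours long transcripts.

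The 50 averaged 13.96% ± 0.875 at 720 ppm and 11.73% ± 0.92 at 400 ppm (SD, n = 6 each). The difference of 2.23 percentage points had p = 0.005 in a two-sided exact permutation of the CO2 labels within each nitrogen form, the smallest p that 400 arrangements can give, and an adjusted p of 0.015 over 6 library measures. The binomial 95% Wilson interval of each such share was at most 0.016 points wide, which covers counting error only. Without any 1 library the difference stayed between 1.98 and 2.54 points. Without the 4 even-rich libraries it was 2.59 points, with an adjusted p of 0.05 by the same permutation, where 0.0417 is the smallest unadjusted p that the 24 arrangements left can give.

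The concentration of counts was seen at other depths of the ranking too. The 10 most abundant transcripts held 5.24% ± 0.538 of the counts at 720 ppm and 4.305% ± 0.394 at 400 ppm (adjusted p = 0.0225, exact permutation, n = 6 each). The 500 most abundant held 32.19% ± 1.09 at 720 ppm and 29.24% ± 1.29 at 400 ppm (adjusted p = 0.015, exact permutation, n = 6 each). The number of transcripts that together held 50% of the counts was 2079 ± 158 at 720 ppm and 2516 ± 194 at 400 ppm (adjusted p = 0.02, exact permutation, n = 6 each). These sets are nested and are not independent of each other.

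**Figure D1:**
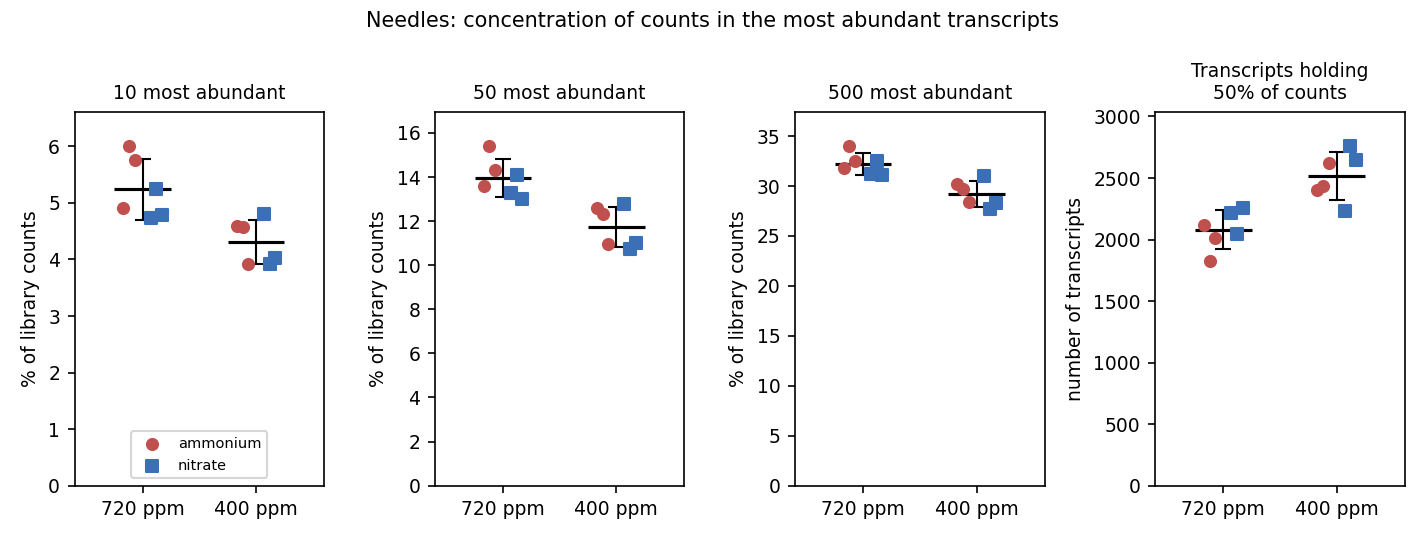
Share of library counts (%) in the 10, 50 and 500 most abundant needle transcripts, and the number of transcripts that hold 50% of the counts, for 6 libraries at 720 ppm and 6 at 400 ppm CO2. Points are libraries (circles ammonium, squares nitrate), and lines and bars are means and SD. The share of the 50 most abundant runs from 13% to 15.43% at 720 ppm, above the 10.74% to 12.77% at 400 ppm.

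The larger share was spread over many identifiers and not carried by 1, though many of the 50 had neighbouring numbers, as described below. Of the 50, 46 had a positive log2 fold change (720 over 400 ppm, edgeR fit with nitrogen form as a covariate), 17 were called higher and 0 lower at an adjusted p under 0.05, and the range was -0.16 to 0.646 with a median of 0.37. With libraries scaled by their totals alone, in place of TMM factors, 43 were positive, 12 were called higher and 1 lower. The largest part of the 2.23 points that any 1 of them supplied was 0.16 points. Under ammonium alone 46 of the 50 had a positive value and under nitrate alone 44.

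The number called among the 50 changed with single libraries. By edgeR, 0 of the 50 were called without ammonium 400 ppm replicate 3, without nitrate 400 ppm replicate 2 or without nitrate 720 ppm replicate 2. The count was 1 without nitrate 400 ppm replicate 3, 2 without ammonium 400 ppm replicate 2, and 3 without ammonium 720 ppm replicate 2 or nitrate 720 ppm replicate 1. It was 8 without nitrate 720 ppm replicate 3 and also 8 without the 4 even-rich libraries, and 32 without nitrate 400 ppm replicate 1. The other 3 libraries left out singly gave 12 (ammonium 720 ppm replicates 1 or 3) and 21 (ammonium 400 ppm replicate 1). At an unadjusted p under 0.05, 39 of the 50 passed with all 12 libraries.

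The most abundant needle transcript of all had a lowest, median and highest level of 6717, 7363 and 9496 CPM at 720 ppm, against 5637, 5866 and 7244 CPM at 400 ppm. The ranges overlapped, and its log2 fold change was 0.42 (SE 0.102, adjusted p = 0.0463 by edgeR), and the call was lost for 10 of the 12 libraries left out singly (0.37 to 0.52), without the even-rich libraries and with no filter on low counts. The second, PpCO2_166267, had 6385, 6565 and 8351 CPM at 720 ppm and 5005, 5753 and 7048 CPM at 400 ppm, and was not called (log2 fold change 0.34, adjusted p = 0.12). The third, PpCO2_16723, varied most among the top 3, with 3823, 5899 and 8483 CPM at 720 ppm and 3342, 4495 and 6900 CPM at 400 ppm (log2 fold change 0.47, SE 0.232, adjusted p = 0.312). All 10 of the most abundant had positive log2 fold changes, between 0.28 and 0.47, and 2 of them were called by edgeR.

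Among the 50, 25 belonged to runs of at least 2 consecutive identifier numbers. The longest run had 8 numbers, with PpCO2_113002 among them, and these together took 3.003% ± 0.197 of the counts at 720 ppm and 2.524% ± 0.225 at 400 ppm (SD, n = 6 each). Their log2 fold changes lay between 0.28 and 0.42, and 4 of the 8 were called higher. The run of 3 numbers from PpCO2_166267 to PpCO2_166269 took 1.63% ± 0.226 at 720 ppm and 1.349% ± 0.181 at 400 ppm. Close to it in number, PpCO2_166264 and PpCO2_166265 took 0.9325% ± 0.0401 at 720 ppm and 0.7591% ± 0.123 at 400 ppm. The most abundant transcript, also close in number, took 0.7722% ± 0.109 and 0.6127% ± 0.0603. Identifiers of near-identical sequence may share reads, so the members of such a run cannot be counted as separate observations.

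The change depended on the level of the transcripts. Among the 65 transcripts of at least 1000 CPM, 59 had positive log2 fold changes with a median of 0.35, and 19 were called higher and 0 lower, 29.2% of the class. Among the 1257 transcripts of 100 to 1000 CPM, 892 were positive with a median of 0.08, and 128 were called higher and 11 lower, 11.1% of the class. The 15280 transcripts of 10 to 100 CPM had a median of -0.0054 with 499 higher and 172 lower calls, and the 39378 of 1 to 10 CPM a median of -0.015 with 247 and 107.

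Libraries scaled by their totals alone gave medians of 0.25 at 1000 CPM and above (55 of 65 positive), -0.02 at 100 to 1000 CPM, -0.10 at 10 to 100 CPM and -0.12 at 1 to 10 CPM. The order of the 4 medians was the same under both scalings. A change of scaling moves all log2 fold changes by nearly the same amount, so this order could hardly differ and is no separate check. The calls changed more: with library totals alone they were 14 higher and 2 lower at 1000 CPM and above, 91 and 73 at 100 to 1000 CPM, 282 and 1050 at 10 to 100 CPM, and 175 and 577 at 1 to 10 CPM. Without the even-rich libraries, 8 of the 65 were called higher and 0 lower by edgeR. The positive sign of the class at 100 to 1000 CPM held under TMM and turned under library totals. The median of the top class was 0.30 to 0.41 when any 1 library was left out and 0.42 without the even-rich libraries. It was 0.37 under ammonium and 0.28 under nitrate.

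In shares of all counts, the class of at least 1000 CPM held 15.67% ± 0.976 at 720 ppm and 13.27% ± 1.02 at 400 ppm, and the class of 10 to 100 CPM held 40.08% ± 0.697 at 720 ppm and 42.01% ± 0.742 at 400 ppm (SD, n = 6 each). The libraries of the 2 CO2 levels did not overlap in either of these classes, with 14.6% to 17.28% at 720 ppm against 12.1% to 14.36% at 400 ppm in the higher one, and 38.95% to 40.88% against 41.03% to 42.72% in the lower one. They overlapped in the other classes. At 100 to 1000 CPM they held 27.75% to 28.21% at 720 ppm against 26.91% to 28.12% at 400 ppm. At 1 to 10 CPM they held 13.66% to 14.75% against 14.59% to 15.94%. The shares add up to nearly 100% in each library, so a gain of one class and a loss of another are not independent. In bulk tissue, a smaller number of cells of a type and less RNA per cell cannot be told apart.

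**Figure D2:**
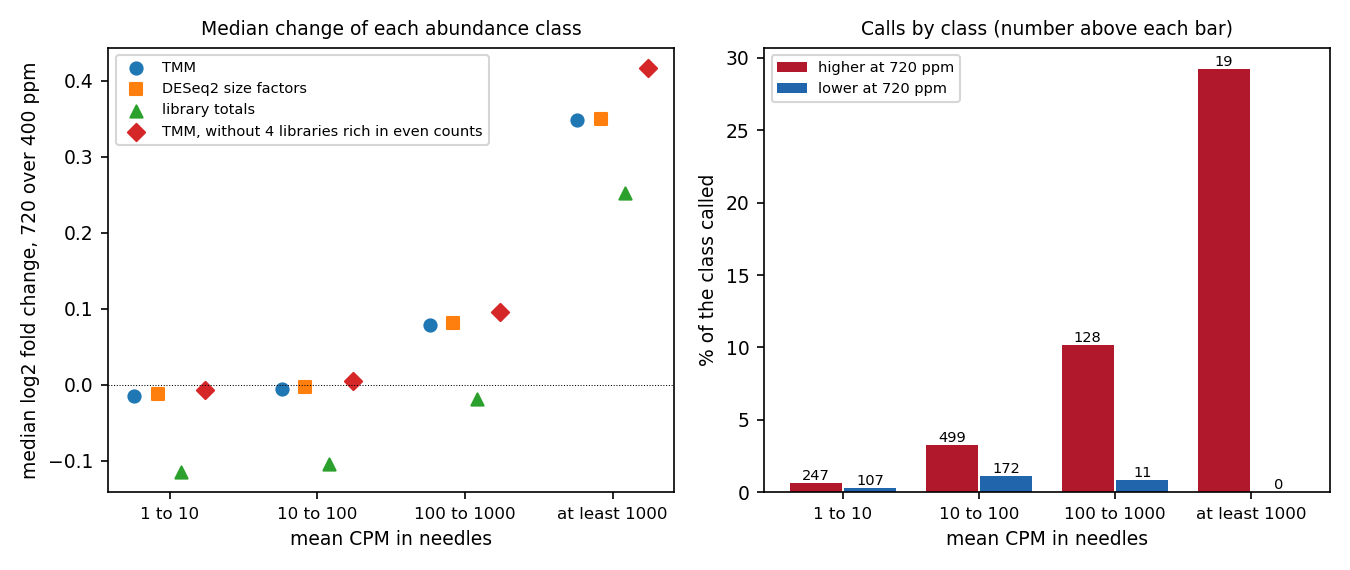
Left, median log2 fold change (720 over 400 ppm CO2) of needle transcripts in 4 classes of mean CPM, under 3 scalings and without 4 libraries rich in even counts. Right, percentage of each class called higher or lower at 720 ppm by edgeR, with the number called above each bar. The class of at least 1000 CPM has a positive median in every setting shown and 19 higher against 0 lower calls.

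Over all transcripts, more were called higher than lower at 720 ppm with TMM factors. With library totals alone more were called lower (562 higher, 1702 lower). With 1 CO2 effect over both nitrogen forms, edgeR's quasi-likelihood test called 1183 of 55980 transcripts (2.11%) at a Benjamini-Hochberg adjusted p under 0.05, of which 893 were higher (1.6%) and 290 lower (0.518%) at 720 ppm. At an unadjusted p under 0.05, 9967 passed (17.8%). Against these 2.11%, the 17 of the 50 most abundant transcripts came to 34%. The share called also depends on precision, so the 2 percentages do not compare the size of the response alone. The median SE was 0.177 at 1 to 10 CPM, 0.0902 at 10 to 100 CPM, 0.0721 at 100 to 1000 CPM and 0.096 above. The shares called in these classes were 0.899%, 4.39%, 11.1% and 29.2%.

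Most called changes were small. The 893 higher transcripts had a median log2 fold change of 0.52 (interquartile range 0.40 to 0.69), 66 of them changed more than 2-fold, and 536 changed less than 1.5-fold. The 290 lower transcripts had a median of -0.41 (interquartile range -0.52 to -0.33), 7 changed more than 2-fold and 239 less than 1.5-fold. The higher transcripts had a median level of 23.8 CPM and the lower ones 14 CPM, against 4.86 CPM over all transcripts tested. Together the higher ones took 11.18% ± 0.528 of the counts at 720 ppm and 8.725% ± 0.712 at 400 ppm, and the lower ones 0.6636% ± 0.039 at 720 ppm and 0.9125% ± 0.0628 at 400 ppm (SD, n = 6 each), which their choice by the same test fixes in direction.

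Not every called transcript separated the libraries. The 6 TMM-scaled values at 720 ppm lay wholly above the 6 at 400 ppm for 387 of the 893 higher transcripts, and wholly below them for 184 of the 290 lower ones. Over all 55980 transcripts this was so for 597 in the higher and 541 in the lower direction. Within both nitrogen forms separately, 3 against 3, the libraries did not overlap for 665 of the 893 and 254 of the 290. The choice of these transcripts by the same CO2 test favours this separation. A count of it over all transcripts is not given here, so these values are descriptions only.

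**Figure D3:**
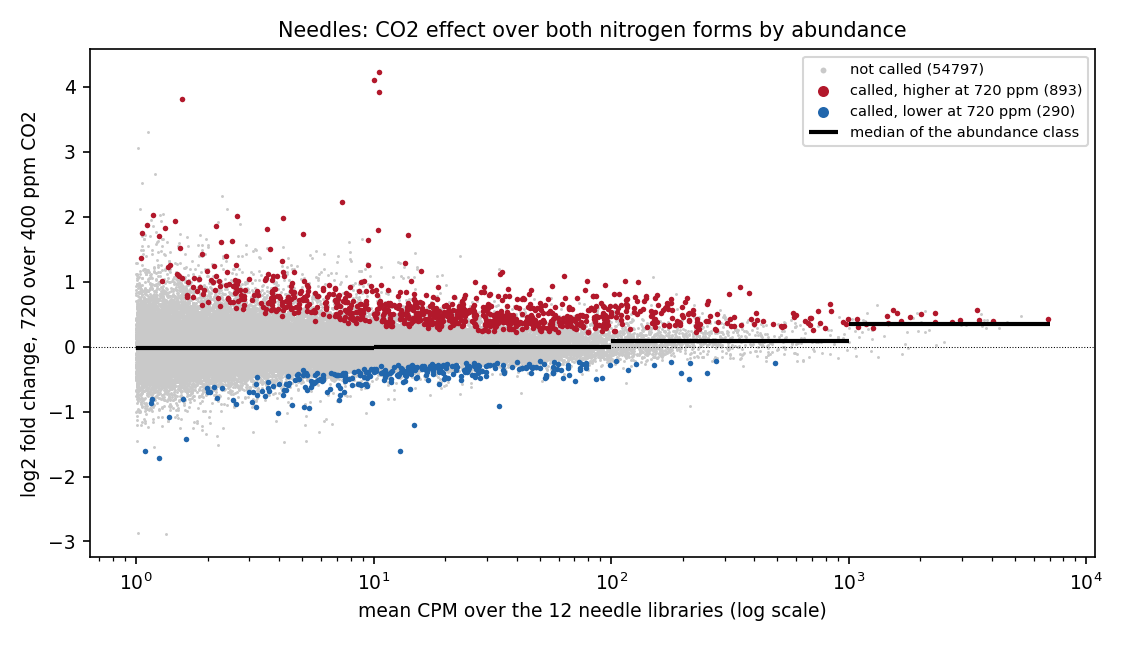
Log2 fold change (720 over 400 ppm CO2, both nitrogen forms) against mean CPM on a log axis for the 55980 needle transcripts tested, one point each. Red points are the 893 called higher and blue points the 290 called lower at 720 ppm. Black lines are the medians of the 4 abundance classes, from -0.015 at 1 to 10 CPM to 0.35 at 1000 CPM and above.

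The number of calls depended on single libraries and on the scaling, and the direction of most calls on the scaling. It fell to 250 without nitrate 720 ppm replicate 2, 288 without ammonium 400 ppm replicate 3, 305 without nitrate 400 ppm replicate 2, 376 without nitrate 720 ppm replicate 1 and 406 without nitrate 400 ppm replicate 3. It was 514 without ammonium 720 ppm replicate 2, 566 without ammonium 400 ppm replicate 2, 717 without nitrate 720 ppm replicate 3 and 2061 without nitrate 400 ppm replicate 1. With library totals alone, 562 were called higher and 1702 lower, with the median of all transcripts shifted by -0.0991 on the log2 scale. With the share of identifiers at 0 counts as a covariate, 1043 were called higher and 576 lower, and without the 4 even-rich libraries 500 higher and 103 lower.

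Of the called transcripts, 4 are given in full. Among transcripts with a mean of at least 5 CPM and libraries that separated within each nitrogen form, the largest increase was that of PpCO2_172994. It had 24.03, 20.12 and 1.538 CPM at 720 ppm under ammonium, against 0.9126, 0.9274 and 1.278 CPM at 400 ppm. Under nitrate it had 39.59, 18.53 and 16.48 CPM at 720 ppm, against 0.7249, 1.475 and 1.411 CPM at 400 ppm. It was at or under 1.48 CPM in every library at 400 ppm, and ammonium replicate 3 at 720 ppm, an even-rich library, lay just above that while the other 5 at 720 ppm were over 16 CPM.

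PpCO2_172994 averaged 20 ± 12.3 CPM at 720 ppm and 1.12 ± 0.307 CPM at 400 ppm (SD, n = 6 each). Its log2 fold change was 4.22 (SE 0.58, adjusted p = 0.0117 by edgeR), and it stayed called without any 1 library (3.97 to 4.48), with an adjusted p of 0.0534 by limma-voom. Within 10 identifier numbers of it, 6 others were tested, of which 2 were called higher, with a log2 fold change of up to 4.1.

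PpCO2_113002, the seventh transcript by mean CPM, was the most abundant one to rise with separated libraries. It had 4342, 5020 and 4064 CPM at 720 ppm and 3624, 3912 and 3316 CPM at 400 ppm under ammonium. Under nitrate it had 4489, 4501 and 4292 CPM at 720 ppm and 4196, 3444 and 3218 CPM at 400 ppm. Pooled over nitrogen the ranges overlapped, since ammonium replicate 3 at 720 ppm lay below nitrate replicate 1 at 400 ppm.

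PpCO2_113002 averaged 4450 ± 321 CPM at 720 ppm and 3620 ± 375 CPM at 400 ppm (SD, n = 6 each), a log2 fold change of 0.40 (SE 0.0874, adjusted p = 0.0343 by edgeR). Leaving out 1 library gave 0.34 to 0.47, and the call was lost without 8 of the 12, with an adjusted p of up to 0.0886 by edgeR. It was kept without ammonium 400 ppm replicate 1, ammonium 720 ppm replicates 1 or 3, or nitrate 400 ppm replicate 1.

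The largest decrease among called transcripts of at least 5 CPM whose libraries separated within each nitrogen form was that of PpCO2_178483, whose libraries under nitrate all lay above those under ammonium. Under ammonium it had 0.3641, 0.6156 and 0.07953 CPM at 720 ppm and 1.349, 2.481 and 1.169 CPM at 400 ppm. Under nitrate it had 14.88, 10.66 and 14.43 CPM at 720 ppm and 25.32, 23.29 and 60.08 CPM at 400 ppm. Within each nitrogen form the libraries at 720 ppm lay below those at 400 ppm.

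The log2 fold change of PpCO2_178483 was -1.60 (SE 0.347, adjusted p = 0.0384 by edgeR). It ranged from -1.77 to -1.36 without 1 library, and the call was kept only without ammonium 400 ppm replicate 1, ammonium 720 ppm replicate 3 or nitrate 400 ppm replicate 1. It was also lost with no filter on low counts and with filterByExpr. Within 10 identifier numbers of it 17 others were tested, and 1 was called lower.

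PpCO2_61480, at rank 157, was the most abundant transcript called lower with libraries that separated within each nitrogen form. It had 397.8, 428.7 and 468.4 CPM at 720 ppm and 488.1, 542.9 and 556.1 CPM at 400 ppm under ammonium. Under nitrate it had 421.8, 411.7 and 445.7 CPM at 720 ppm and 542.5, 573.6 and 573.2 CPM at 400 ppm. All 6 libraries at 720 ppm were below all 6 at 400 ppm.

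PpCO2_61480 averaged 429 ± 25.1 CPM at 720 ppm and 546 ± 31.6 CPM at 400 ppm (SD, n = 6 each), a log2 fold change of -0.25 (SE 0.0601, adjusted p = 0.0474 by edgeR). Leaving out 1 library gave -0.28 to -0.22, and the call was kept only without ammonium 400 ppm replicate 1 or ammonium 720 ppm replicate 3. It was also lost without the even-rich libraries, with no filter on low counts, with filterByExpr, and with the share of identifiers at 0 counts as a covariate.

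**Figure D4:**
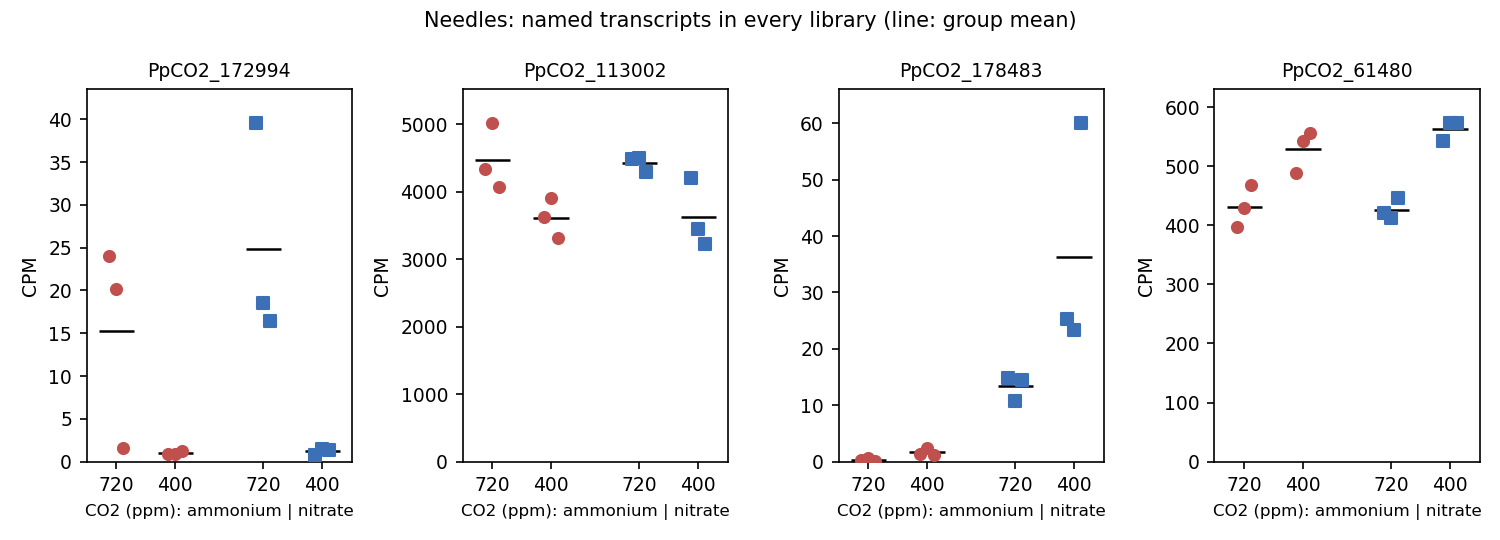
CPM of 4 called transcripts in each needle library, 720 ppm left of 400 ppm within ammonium (circles) and nitrate (squares), with the mean of the 3 libraries of a group as a line. PpCO2_172994 is at or under 1.48 CPM at 400 ppm and reaches 39.59 CPM at 720 ppm, while PpCO2_178483 is higher under nitrate than under ammonium at either CO2 level.

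Split by nitrogen form, few transcripts passed. Under ammonium, 3 were called higher and 0 lower at 720 ppm (0.00536% of those tested), with 6824 at an unadjusted p under 0.05. Under nitrate, 5 were called higher and 1 lower (0.0107%), with 6062 at an unadjusted p under 0.05. All 9 were also called in the pooled test in the same direction. The 3 under ammonium had mean levels of 21.4 to 36.6 CPM over the 12 libraries and log2 fold changes of 0.68 to 0.98, and the 5 called higher under nitrate had 0.80 to 1.47. The 1 transcript that fell under nitrate had 21.6 to 22.4 CPM at 720 ppm and 36 to 53.2 CPM at 400 ppm.

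A difference between the CO2 effects under the 2 nitrogen forms was called for 0 transcripts by edgeR (0%) and 0 by limma-voom, while DESeq2 called 26. At an unadjusted p under 0.05, 2402 passed (4.29%). All 893 higher and all 290 lower transcripts of the pooled test had the same sign under both nitrogen forms, which the pooled test favours. The higher ones had a median log2 fold change of 0.51 under ammonium and 0.53 under nitrate, and 441 of the 893 were larger under ammonium. The lower ones had medians of -0.41 under ammonium and -0.39 under nitrate. This does not show that the effects were equal, only that a difference was not detected with 3 libraries a group.

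The counts within a nitrogen form hung on single libraries. The 3 calls under ammonium became 0 without ammonium 400 ppm replicate 3 or ammonium 720 ppm replicates 1 or 2, 1 without ammonium 400 ppm replicates 1 or 2, 5 without ammonium 720 ppm replicate 3, and 11 without nitrate 400 ppm replicate 1. The 6 calls under nitrate became 0 without ammonium 400 ppm replicate 2, nitrate 400 ppm replicate 2 or nitrate 720 ppm replicate 1, and 2 without ammonium 400 ppm replicate 3. They became 18 without nitrate 400 ppm replicate 3, 22 without ammonium 720 ppm replicate 3, 50 without nitrate 720 ppm replicate 3 and 53 without nitrate 400 ppm replicate 1. The 0 calls for the difference became 1 without ammonium 400 ppm replicate 1, 2 without nitrate 400 ppm replicate 3 or nitrate 720 ppm replicate 3, and 3 without nitrate 720 ppm replicate 2.

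The needle response was set against that of stem and roots from the same pools of seedlings. The 50 transcripts that were most abundant in needles took a smaller share of counts at 720 ppm in both other organs, the opposite of needles. In stem, these 50 took 2.317%, 3.412% and 2.849% of the counts at 720 ppm and 3.694%, 3.426% and 3.622% at 400 ppm under ammonium. Under nitrate they took 2.823%, 2.529% and 2.789% of the stem counts at 720 ppm and 3.792%, 3.176% and 3.874% at 400 ppm. Within each nitrogen form the stem libraries at 720 ppm lay below those at 400 ppm, under ammonium by a narrow gap.

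In roots, where these 50 were scarce, they took 0.8067%, 0.9216% and 0.8766% of the counts at 720 ppm and 0.9779%, 1.057% and 1.112% at 400 ppm under ammonium. Under nitrate they took 0.6081%, 0.5557% and 0.5891% at 720 ppm and 0.6729%, 0.7069% and 0.6844% at 400 ppm. The root libraries at 720 ppm again lay below those at 400 ppm within each nitrogen form, and overlapped across the forms.

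The stem share of the needle 50 averaged 2.786% ± 0.37 at 720 ppm and 3.597% ± 0.257 at 400 ppm, a difference of -0.811 points, and the root share averaged 0.7263% ± 0.161 at 720 ppm and 0.8684% ± 0.202 at 400 ppm, a difference of -0.142 points (SD, n = 6 each). Both had an adjusted p of 0.0075 by exact permutation within nitrogen form, over 6 tests of organ shares chosen after the needle values were seen. Without the 3 even-rich stem libraries the stem difference was -0.859 points with an unadjusted p of 0.05 by exact permutation.

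**Figure D5:**
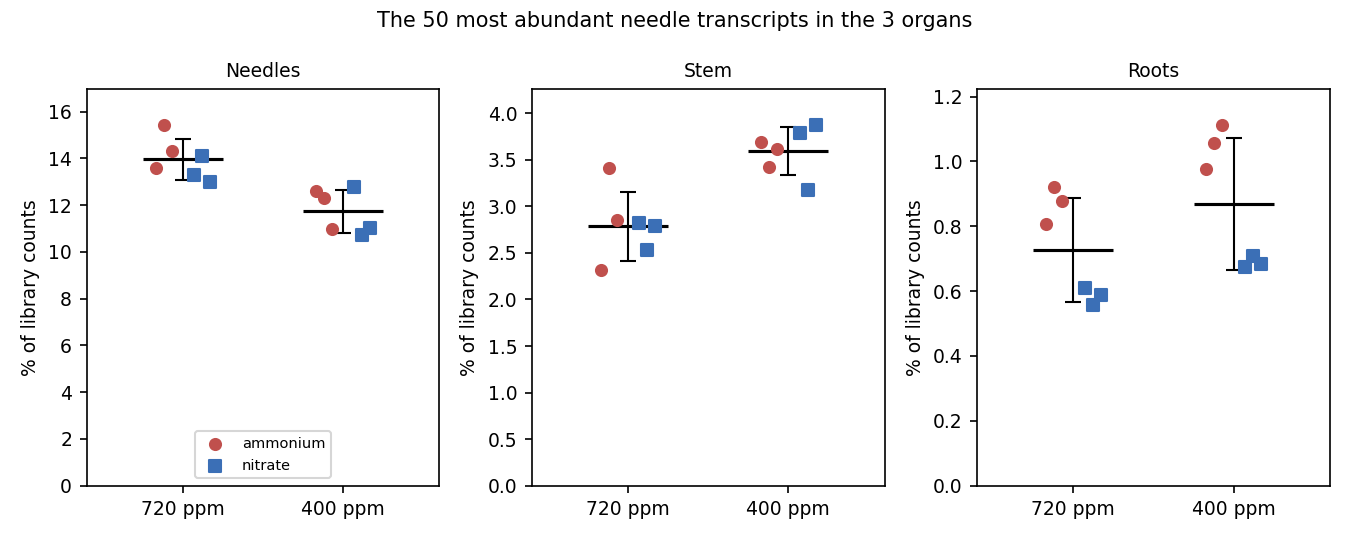
Share of library counts (%) taken in needles, stem and roots by the 50 transcripts most abundant in needles, for 6 libraries at 720 ppm and 6 at 400 ppm CO2 in each organ. Points are libraries (circles ammonium, squares nitrate), lines and bars are means and SD, and the vertical scales differ between organs. The mean is higher at 720 ppm in needles (13.96% against 11.73%) and lower at 720 ppm in stem (2.786% against 3.597%) and roots (0.7263% against 0.8684%).

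One by one, 48 of the 50 had a negative log2 fold change in stem, with a median of -0.56, and 37 of the 48 measured in roots were negative, with a median of -0.23, although 0 were called in either organ by edgeR. Over all transcripts measured in both organs the medians were -0.0027 in stem and -0.0045 in roots. The CO2 effect was called more positive in needles than in stem for 30 of the 50, against 408 of all 51918. It was called more positive in needles than in roots for 3 of 48, against 173 of all 49674. The 30 became 4 with replicate 1 of each group left out, 22 without replicate 2, 0 without replicate 3, and 0 without the even-rich libraries. The 3 became 8, 0 and 0 without replicates 1, 2 and 3 of each group, and 1 without the even-rich libraries.

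A rise in the share of the leading transcripts was not seen in the other organs with their own rankings. The 50 most abundant stem transcripts held 6.027% ± 0.276 of the stem counts at 720 ppm and 6.686% ± 0.362 at 400 ppm (adjusted p = 0.018, exact permutation, n = 6 each). Without the 3 even-rich stem libraries the stem difference was -0.65 points with an unadjusted p of 0.075 by exact permutation. The 50 most abundant root transcripts held 5.452% ± 0.484 of the root counts at 720 ppm and 5.771% ± 0.531 at 400 ppm (adjusted p = 0.02, exact permutation, n = 6 each), with an adjusted p of 0.055 without ammonium 400 ppm replicate 3.

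Within a pool, the needle share of its 50 exceeded the stem share of its 50 by 7.933 ± 0.945 points at 720 ppm and by 5.048 ± 0.821 points at 400 ppm. Needles exceeded roots in the same way by 8.508 ± 0.591 points at 720 ppm and 5.963 ± 0.948 points at 400 ppm (SD, n = 6 each). These differences of 2.885 and 2.545 points between CO2 levels each had an adjusted p of 0.0075 by exact permutation. Leaving out any 1 pool gave 2.63 to 3.15 points against stem and 2.27 to 2.83 points against roots. The 6 pools without an even-rich library gave 3.63 points against stem, with p = 0.111 by exact permutation, the smallest that 9 arrangements allow.

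Across all transcripts measured in both organs, the CO2 effect differed between needles and stem for 448 of 51918 (0.863%), more positive in needles for 408 and more negative for 40. It differed between needles and roots for 195 of 49674 (0.393%), more positive in needles for 173 and more negative for 22. These fits had no term for the pool that the organs share. With a block on the pool, edgeR called 381 against stem, 279 of them among the 448. Against roots the block gave 175, 112 of them among the 195. The 408 had a median log2 fold change of 0.34 in needles and -0.44 in stem, and the 173 had 0.42 in needles and -0.26 in roots. The count against stem was 41, 147 and 0 without replicates 1, 2 and 3 of each group, and 2 without the even-rich libraries. The count against roots was 213, 0 and 7 without replicates 1, 2 and 3.

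Tested within the other organs, edgeR called 0 of 64372 stem transcripts (0%, with 5931 at an unadjusted p under 0.05), and 137 of 67457 root transcripts (0.203%), 48 higher and 89 lower at 720 ppm. With the replicate number as a block, 627 root transcripts were called, 389 higher and 238 lower. The direction of most root calls thus depended on whether the replicate number was in the fit. The stem count was also 0 by limma-voom, was 2 without the even-rich libraries, and was 1 without ammonium 720 ppm replicates 2 or 3 or nitrate 720 ppm replicate 1. The root count was 12 without ammonium 400 ppm replicate 3, 16 without nitrate 720 ppm replicate 2, 29 and 36 without ammonium 720 ppm replicates 2 and 3, 47 without nitrate 720 ppm replicate 3, 56 without ammonium 400 ppm replicate 2 or nitrate 400 ppm replicate 1, and 83 and 61 without nitrate 400 ppm replicates 2 and 3. Of the 893 transcripts higher in needles at 720 ppm, 824 were measured in stem and 786 in roots. In stem 0 were called, the median log2 fold change was -0.0012, and 49.3% had the sign seen in needles, against 51.1% of all transcripts tested. In roots 3 were called higher and 1 lower, against 34 and 80 of all 49674 tested there. The median of the 786 was 0.03, and 56.5% had the needle sign, against 50.3% of all. The difference between organs was called for 172 of the 824 in stem (20.9%, against 0.863% of all). In roots it was called for 101 of the 786 (12.8%, against 0.393% of all). These tests share the needle libraries that chose these transcripts.

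Of the 290 transcripts lower in needles at 720 ppm, 276 were measured in stem and 258 in roots. In stem their median log2 fold change was -0.07, and 63.4% had the needle sign, against 51.1% of all transcripts tested. The organ difference was called for 17 (6.16%, against 0.863% of all), in a test that shares the needle libraries that chose them. In roots 5 were called lower, against 80 of all 49674 tested there. The median of the 258 was -0.0015, and 52.3% had the needle sign, against 50.3% of all. The organ difference was called for 14 (5.43%, against 0.393% of all), again with shared needle libraries.

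The 4 named transcripts were chosen for their change in needles, and the test of a difference between organs uses the same needle libraries, so their differences are given as descriptions. The CO2 effect in needles minus that in roots was 3.27 on the log2 scale for PpCO2_172994 (adjusted p = 0.0251 by edgeR), 0.46 for PpCO2_113002 (adjusted p = 0.758), -1.82 for PpCO2_178483 (adjusted p = 0.0427) and 0.11 for PpCO2_61480 (adjusted p = 0.761). The CO2 effect in needles minus that in stem was 1.36 for PpCO2_172994 (adjusted p = 0.482 by edgeR), 1.07 for PpCO2_113002 (adjusted p = 0.0372), -1.48 for PpCO2_178483 (adjusted p = 0.255) and 0.24 for PpCO2_61480 (adjusted p = 0.45). In roots alone, PpCO2_178483 had a log2 fold change of 0.25 and was not called.

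The transcripts that responded in needles were not all most abundant there. By mean CPM in the 3 organs, 40.2% of the 893 higher and 32.8% of the 290 lower transcripts were highest in needles, against 25.8% of all 55980. An 8-fold excess over both other organs was found for 9.29% of the higher and 2.41% of the lower transcripts, against 2.79% of all. Of the 50 most abundant, 47 were highest in needles. No test was made of these shares.

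Some called transcripts stood next to each other in identifier number. Another higher transcript stood directly before or after 34.8% of the 893, which formed 697 runs with the longest of 13, and another lower one directly before or after 21.4% of the 290, which formed 253 runs with the longest of 7. Of all transcripts tested, 88.4% had a tested neighbour directly before or after, called or not. That share is not a baseline for called neighbours, and none was computed.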

How the data were processed

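The measurements were paired-end reads of 150 bp from total RNA of needles, stem and roots, taken as raw counts per transcript identifier from the table the authors deposited. Per the submitters' processing notes, bcl2fastq was used; the aligner, counter, transcript assembly and strand setting are not given in the sources used here. The treatment text of the labels describes another root experiment and the extraction text names root RNA, so the design was taken from the sample titles, characteristics and series design, per the labels. Each of the 36 columns carried the description of 1 sample.

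The 12 needle libraries were fitted in edgeR 4.0.16 (R 4.3.3) with TMM factors (0.926 to 1 at 720 ppm, 0.9925 to 1.071 at 400 ppm), nitrogen form as a covariate, and the robust quasi-likelihood F-test, two-sided, Benjamini-Hochberg adjusted over the 55980 transcripts of at least 1 CPM, with calls at an adjusted p under 0.05. Nitrogen forms and their difference were tested in a fit with 4 group means, and organs in fits of 24 libraries with organ by nitrogen and organ by CO2 terms. CPM values are counts scaled to a library total of 1000000; fold changes come from the TMM-scaled fit. Shares of counts were compared by exact permutation of CO2 labels within nitrogen form. Alternatives used DESeq2 1.42.0, limma 3.58.1, other filters and scalings, the even-rich libraries left out, and each library left out in turn.

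Named transcripts were, in each direction, the called one with the largest fold change (at least 5 CPM) and the one with the highest mean CPM, among those whose libraries did not overlap within either nitrogen form; the most abundant are given by rank. The transcripts and lists were chosen with earlier results of these data known. Lists of photosynthesis and nitrogen genes could not be matched to unnamed identifiers and were not run.

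Per the labels, the 3 libraries of each group were biological replicates from separate pools; p-values measure the spread between these pools. No replicate pair agreed within sampling noise (chi-square per degree of freedom 227.4 to 790.9 over 1322 transcripts of at least 100 CPM). Needles, stem and roots of the same number share a pool by the series design (needle-stem correlations of 0.0573 to 0.235, needle-root -0.0296 to 0.3834).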

Additional observations from a re-analysis of the deposited data

Results flagged for a closer look

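Ammonium replicate 3 at 720 ppm stood apart from the other 5 needle libraries at 720 ppm in the share of identifiers at 0 counts (58.5%) and in the share of even numbers among counts above 20 (73.1%). PpCO2_61480 had 488 CPM in ammonium replicate 1 at 400 ppm, against 542.5 to 573.6 CPM in the other 5 libraries at 400 ppm. These are 3 of 26 groups examined for a library far from the others, where chance gives about 1 in 20.

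The CO2 effect differed between needles and stem for 448 transcripts and between needles and roots for 195 by edgeR at an adjusted p under 0.05. The share of counts in the 50 most abundant transcripts changed with CO2 by 2.885 points more in needles than in stem and by 2.545 points more in needles than in roots, per pool, each with an adjusted p of 0.0075 by exact permutation.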

How the results depend on the processing

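The pooled count of 1183 was 1793 at a mean of at least 5 CPM (1001 shared with the 1183) and 3519 by DESeq2 (1157 shared). It was 603 without the even-rich libraries (360 shared), 698 with filterByExpr (692 shared) and 2264 with library totals alone (851 shared). It was 73 with a fold change over 2 required, and 250 to 2061 with 1 library left out. The other alternatives kept the count within 1.5 times, among them the replicate block with 1630 calls (1109 shared). The transcripts called changed more in some of these than in others. Shared were 869 of 1140 with no filter on low counts and 883 of 1619 with the share of identifiers at 0 counts as a covariate. With DESeq2 size factors 1161 of 1167 were shared, and by limma-voom 1137 of 1366. Deviations of same-numbered libraries correlated over 0.1 for 4 of 18 pairs in needles (-0.0155 to 0.2158), 4 of 18 in stem and 14 of 18 in roots. For different numbers the counts were 0 of 36 in needles, 3 of 36 in stem and 5 of 36 in roots. Median correlations were higher for same than for different numbers in each organ. They were 0.049 against -0.021 in needles, 0.074 against -0.023 in stem, and 0.155 against -0.121 in roots. The main fits left the replicate numbers out because not every same-numbered pair passed 0.1 in any organ. That rule is not a test of pairing, and whether same-numbered libraries of an organ are paired was not tested. Apart from the root count above, the replicate block is given only here, with 33 calls under ammonium, 149 under nitrate and 0 for their difference. In stem it gave 0 calls. In roots it gave 627 (389 higher, 238 lower) against 137 (48 higher, 89 lower) without the block. The replicate block also took the calls of PpCO2_178483 (adjusted p = 0.0522 by edgeR) and of the most abundant transcript (0.0556). Calls under ammonium (3) were 168 with no filter, 19 at 5 CPM, 1056 by DESeq2, 5 by limma-voom, 1 without the even-rich libraries, and 0 to 11 without 1 library. Calls under nitrate (6) were 329, 104, 927 and 0 in the first 4 of these settings and 0 to 53 without 1 library. Calls for the difference of the nitrogen forms were 26 by DESeq2, 1 without the even-rich libraries, and 0 to 3 without 1 library. Organ differences were 2 against stem without the even-rich libraries, and 0 to 147 against stem and 0 to 213 against roots without 1 replicate number; blocking on the pool gave 381 and 175. The share of the 50 kept its direction in all settings: 1.98 to 2.54 points without 1 library, 2.59 (adjusted p = 0.05, exact permutation) without the even-rich libraries. Of the organ shares, without the even-rich libraries the stem's own 50 gave -0.65 points (p = 0.075), the needle 50 in stem -0.859 (p = 0.05) and needles minus stem 3.63 (p = 0.111), by exact permutation; the root's own 50 gave -0.38 to -0.23 without 1 library. Calls within stem were 2 without the even-rich libraries and 0 to 1 without 1 library, and those within roots 12 to 181 without 1 library. The settings for organ shares and for stem and roots alone were chosen after seeing the data. The cause of these shifts was not tested. Transcripts just above 1 CPM were rarely called (1 of 885).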
